A study of Mus musculus with 8 samples.

Results

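Open chromatin at 5 loci of the cell's adhesion machinery was examined in NIH3T3 cells, an immortalised line of mouse embryo fibroblasts. The loci were those of Vcl, Tln1, Zyx, Ptk2 and Cav1, and a peak was a member if it overlapped the fixed window of one of these genes on the mouse build mm9. The windows were chr14:21720000-21870000 for Vcl, chr4:43520000-43590000 for Tln1, chr6:42280000-42330000 for Zyx, chr15:73010000-73280000 for Ptk2 and chr6:17230000-17310000 for Cav1. They held 134 of the 154178 peaks in the 4 peak lists, and these peaks merged into 41 of 45915 regions.

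The members came from ATAC-seq, in which the Tn5 transposase inserts adapters into DNA that is not covered by nucleosomes. Cells had been cultured for 24 h on G2 (2 libraries) or on G128 (2 libraries), names that the labels do not explain in a series on hydrogels of polyvinyl alcohol and gelatin. Both groups held the same cell line, and no other treatment, allele or agent is given for either. The labels also list 4 RNA libraries of G2 and G128, which were not analysed here, so no expression value stands beside these peaks. The cell line's label could not be set against marker genes, since no gene annotation of mm9 was used.

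Focal adhesions are the sites where integrins tie the extracellular matrix to the actin cytoskeleton. Talin 1 (Tln1) binds the cytoplasmic tails of integrin beta subunits and brings them into the active state, and under tension it exposes binding sites for vinculin (Vcl), which reinforces the link to actin. Zyxin (Zyx) is a LIM domain protein of mature adhesions and stress fibres that recruits factors of actin assembly. Focal adhesion kinase (Ptk2) is the tyrosine kinase that signals from clustered integrins, and caveolin 1 (Cav1) forms the coat of caveolae, membrane pits that flatten when the membrane is stretched. Vinculin and zyxin are known targets of serum response factor (SRF), which binds the CArG box and responds to the state of actin.

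The RefSeq promoters of these genes are shown to set their letters side by side, since Vcl and Zyx are known SRF targets and the 2 starts of Cav1 can be compared. RefSeq gave 5 such sequences for 4 of the 5 genes, on build GRCm38.p6, and each is the 250 bases before the start of transcription on the gene's own strand. Capitals mark matches on either strand to the AP-1 site TGANTCA, the cyclic AMP response element TGACGTCA, the GC box GGGCGG, the CCAAT box, the TEAD site GGAATG, the TATA box TATAAA or the CArG box of SRF. The 4 sequences printed are chr14:20929148-20929397 for Vcl, chr6:42349578-42349827 for Zyx, and chr6:17306085-17306334 and chr6:17307390-17307639 for the first and second start of Cav1, all on the + strand.
Vcl promoter: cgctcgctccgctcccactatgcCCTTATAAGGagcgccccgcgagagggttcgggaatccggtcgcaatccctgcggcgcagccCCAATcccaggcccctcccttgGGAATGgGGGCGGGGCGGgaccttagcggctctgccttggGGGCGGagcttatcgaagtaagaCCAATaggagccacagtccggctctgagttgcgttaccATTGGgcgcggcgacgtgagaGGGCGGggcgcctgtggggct
Zyx promoter: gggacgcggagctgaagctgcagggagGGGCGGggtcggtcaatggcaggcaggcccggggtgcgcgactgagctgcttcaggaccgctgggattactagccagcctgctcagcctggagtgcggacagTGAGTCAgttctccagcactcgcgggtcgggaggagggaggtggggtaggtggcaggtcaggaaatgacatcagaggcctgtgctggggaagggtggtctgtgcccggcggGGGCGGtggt
Cav1 promoter, first start: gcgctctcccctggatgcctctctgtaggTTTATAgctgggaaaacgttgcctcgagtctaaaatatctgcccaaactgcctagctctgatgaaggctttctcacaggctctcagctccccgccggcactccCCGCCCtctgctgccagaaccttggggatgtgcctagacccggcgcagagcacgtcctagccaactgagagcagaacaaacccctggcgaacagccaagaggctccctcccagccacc
Cav1 promoter, second start: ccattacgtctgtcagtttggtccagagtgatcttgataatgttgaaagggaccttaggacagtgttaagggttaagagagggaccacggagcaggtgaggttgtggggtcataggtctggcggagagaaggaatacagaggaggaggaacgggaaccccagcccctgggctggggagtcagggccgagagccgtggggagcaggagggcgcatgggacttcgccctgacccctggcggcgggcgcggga

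The Vcl promoter held 1 CArG box, a motif found in 1.47% of the 32851 promoters of the table, with 4 GC boxes (a pair of them sharing a base), 3 CCAAT boxes and 1 TEAD site. In the Zyx promoter stood 1 AP-1 site, a motif of 6.75% of all promoters, and 2 GC boxes, but no CArG box. The first Cav1 start had 1 TATA box match, close to the far end of the window, and 1 GC box, whereas the second Cav1 start and the Tln1 promoter had none of these motifs. GC boxes were found in 32.7% of all promoters, CCAAT boxes in 33.8%, TEAD sites in 12.6% and TATA boxes in 12.4%. GC content was 67.2% for Vcl, 67.6% for Zyx and 55.6% for Tln1, against a median of 52.4% over the table. The first and second Cav1 starts had 59.6% and 60.8%. These positions are on another build than the peaks, so which peak, if any, covers a promoter was not determined, and a match is a string of letters and not a bound site.

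Peak heights are given as the summit over the background. This is the number of overlapping intervals at the highest point of a peak, recovered from the deposited p-values, divided by the mean of the library's background. The background mean was 1.10 and 1.37 intervals per bp in G2 replicates 1 and 2, and 1.05 and 1.41 in G128 replicates 1 and 2. The lists give no read totals, so depth is known only through this mean. The weakest peak listed anywhere had a summit of 18.2 to 19 times the background, depending on the library. Summits stood generally higher on G2: over the 27768 regions that had a peak in all 4 libraries, the library medians were 67.3 and 68.7 on G2, against 50.3 and 58.1 on G128. A scaled difference below is a log2 summit from which this library median was subtracted. A summit averages over all cells of a library, so more cells with an open site and more insertions per cell cannot be told apart. Nothing in the labels says that replicates came from separate cultures, so the p-values speak only for these samples, whose spread may be technical.

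The 5 loci were open in every library, and each was dominated by a few high regions with low ones around them. Within each locus the regions are numbered in the direction of rising coordinates. A locus is named after the gene of its window, and which gene a region belongs to was not determined. In the RefSeq gene order the neighbours are Plau and Ap3m1 for Vcl, Tpm2 and Creb3 for Tln1, and Fam131b and Epha1 for Zyx. Of the 41 regions, 23 had a peak in all 4 libraries, against 60.5% of all merged regions. These 23 regions were 300 to 2579 bp wide, with a median of 895 bp. The other 18 were 90 to 878 bp wide, and none of their summits exceeded 36.8 times the background. A further 8 regions had a peak in every library but G128 replicate 1, a pattern of 9.48% of all merged regions. One region was found in both G2 libraries alone (8.32% of all regions), none in both G128 libraries alone (0.37%), and 1 in every library but G2 replicate 1 (0.558%). The remaining 8 regions each had a peak in a single library. Of these, 3 were in G2 replicate 1 (6.14% of all regions), 4 in G2 replicate 2 (6.46%) and 1 in G128 replicate 2 (2.27%).

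**Figure D1:**
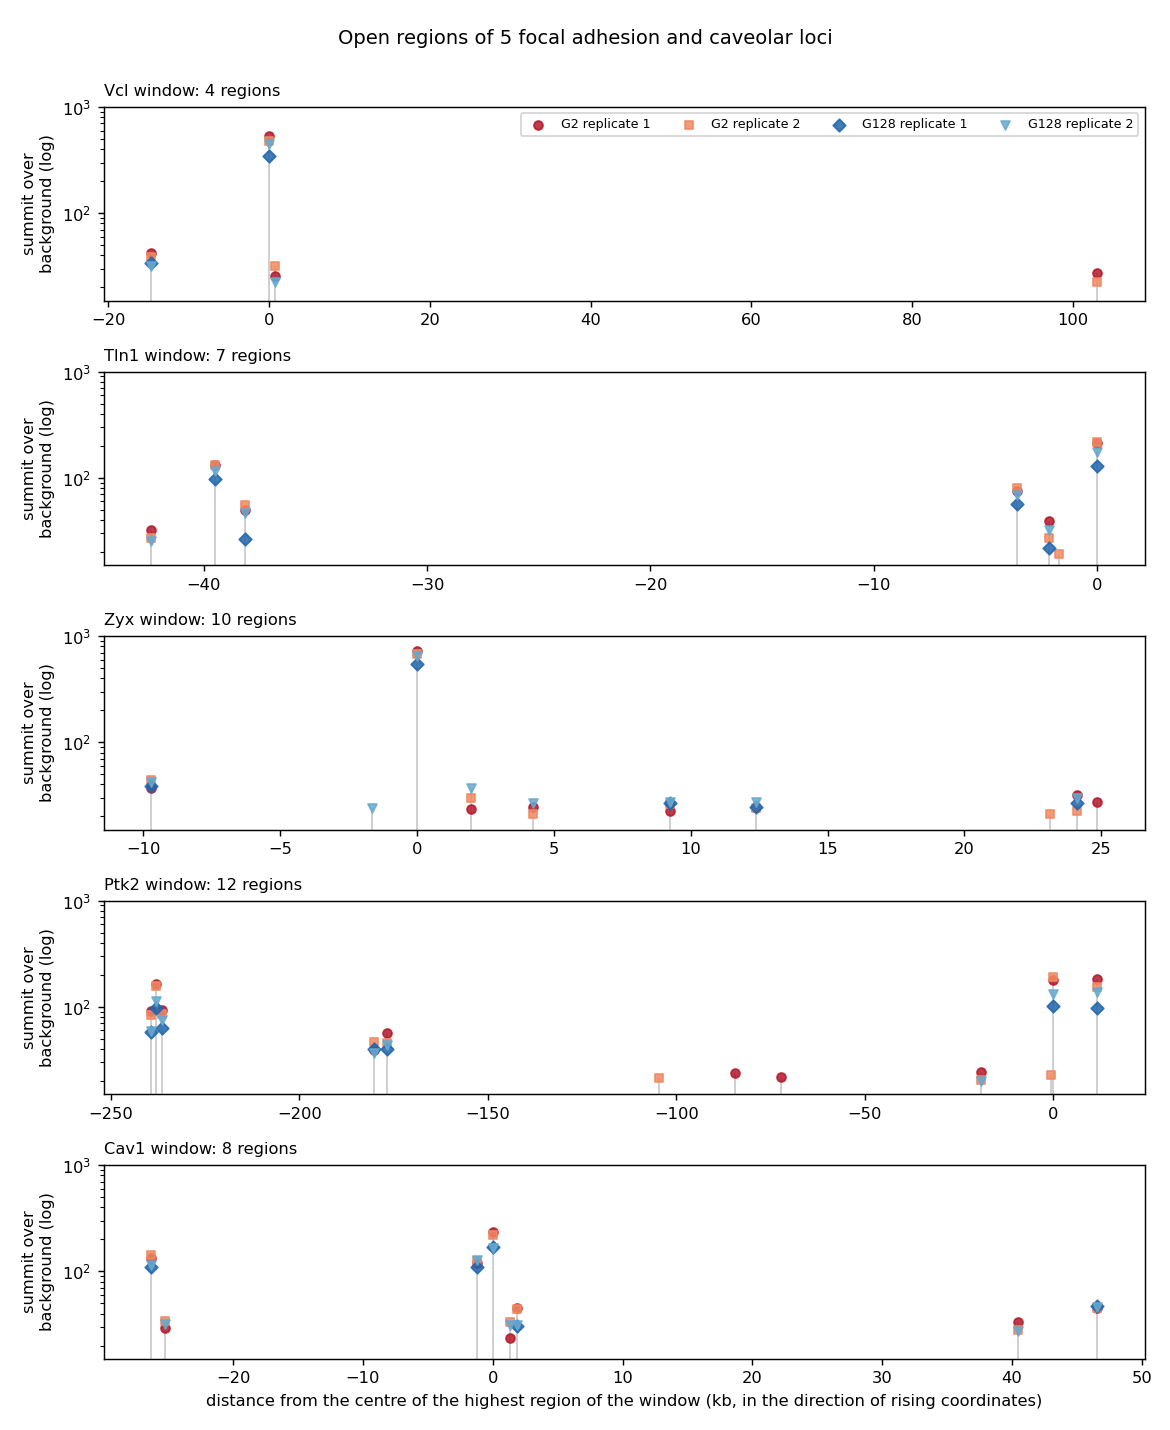
Summit over the background (log axis) of every region in the 5 windows, plotted against the distance in kb from the centre of the highest region of that window, with 1 symbol per library. The Vcl and Zyx windows each have 1 high region among low ones, while Tln1, Ptk2 and Cav1 have high regions at several places, at Ptk2 near both ends of the window.

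Vinculin's window held the second highest region of the 5 loci, and little else. Vcl region 2, at chr14:21748005-21749024, reached 533 and 483 times the background in the G2 libraries, against 344 and 450 in the G128 libraries. Both G2 summits were above both G128 summits, although G128 replicate 2 was closer to the G2 libraries than to G128 replicate 1. It ranked 195th by mean summit among the 27768 shared regions. Its summit fell within 5 bp in all 4 libraries, between positions 21748411 and 21748416. The scaled difference was 0.04 ± 0.15 on the log2 scale (limma SE), with a Benjamini-Hochberg adjusted p of 0.938, and it lay between -0.05 (without G128 replicate 1) and 0.12 (without G128 replicate 2) when a library was left out.

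The other shared region of this locus, Vcl region 1 at chr14:21733659-21733995, lay 14.7 kb away and was low. Its summits were 41.8 and 38.7 on G2, against 34.1 and 31.9 on G128. Again the groups did not overlap, and the scaled difference was -0.04 ± 0.16 (limma SE, adjusted p = 0.927), with 0.11 without G128 replicate 1 and -0.20 without G128 replicate 2. Directly beside region 2, after a gap of 121 bp, Vcl region 3 had summits of 25.5 and 32.1 on G2 and 22.7 in G128 replicate 2, with no peak in G128 replicate 1.

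The single region with peaks in both G2 libraries alone was Vcl region 4, at chr14:21851337-21851723, 103 kb from region 2. Its summits were low, at 27.3 and 22.6 times the background, or 30 and 31 intervals. They also lay 250 bp apart, at positions 21851675 and 21851425 in G2 replicates 1 and 2. The absence of a listed peak on G128 means a signal below the caller's threshold there and does not show closed chromatin. Leaving out a library loosens the rule for a region on G2 alone, so the number of such regions could only stay or rise. It was 6 without G2 replicate 1, 4 without G2 replicate 2 and 9 without G128 replicate 2. These counts do not show how stable region 4 is.

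At the talin 1 locus the regions formed 2 groups, regions 1 to 3 and regions 4 to 7, with 33848 bp without a peak between them. Tln1 region 7, at chr4:43574699-43576010, was the highest, with summits of 212 and 216 on G2, against 128.04 and 176 on G128. In G128 replicate 1 its summit lay at position 43575238, against 43575453 to 43575463 in the other libraries, a spread of 225 bp. Both G2 libraries were above both G128 libraries before and after scaling, and the scaled difference was 0.18 ± 0.15 (limma SE, adjusted p = 0.627). It depended on the G128 libraries, at 0.05 without G128 replicate 1 and 0.31 without G128 replicate 2. Tln1 region 2, the widest of the locus with 1886 bp at chr4:43534907-43536792, had summits of 132 and 132 on G2, against 97.7 and 116 on G128. Its scaled difference was -0.02 ± 0.14 (limma SE, adjusted p = 0.962).

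Tln1 region 4, at chr4:43571308-43572192, had summits of 74.6 and 80.4 on G2, against 56.0 and 68.0 on G128, and a scaled difference of -0.00 ± 0.14 (limma SE, adjusted p = 0.994). Its highest point moved by up to 300 bp between libraries, so it had no single sharp summit. Tln1 region 3 was unequal on G128, with summits of 26.6 in replicate 1 and 46.8 in replicate 2, against 49.1 and 54.8 on G2. In Tln1 region 5 the groups overlapped, with 39.1 and 27.03 on G2 and 21.8 and 31.9 on G128.

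The zyxin locus had the highest region of all, and none of its shared regions was higher on G2 by as much as the libraries differed in general. Zyx region 3, at chr6:42298768-42301346, was 2579 bp wide and had summits of 719 and 677 times the background on G2, against 543 and 653 on G128. It ranked 31st of the 27768 shared regions by mean summit. Both G2 summits were above both G128 summits, but the ratio of the means, 1.17, was smaller than the general difference between the libraries. After scaling, both G2 values were therefore below both G128 values, by -0.10 ± 0.14 (limma SE, adjusted p = 0.786).

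The 3 low regions of the zyxin locus with a peak in all 4 libraries had similar heights over the background in both cultures. Zyx region 1, at chr6:42290053-42290619, had summits of 37.3 and 43.8 on G2, against 38.9 and 42.5 on G128. Zyx region 9, at chr6:42323975-42324335, had 31.8 and 22.6 on G2, against 26.6 and 29.8 on G128. In both the G2 values enclosed the G128 values. Zyx region 6, at chr6:42308869-42309770, had 22.7 and 26.3 on G2, against 26.6 and 27.6 on G128, and was 1 of 2 shared members where both G2 summits were lower. Of the other low regions, Zyx region 4 had 23.7 and 29.96 on G2, against 36.8 in G128 replicate 2 and no peak in G128 replicate 1. Region 5 also lacked a peak in G128 replicate 1, region 7 lacked one in G2 replicate 1, and regions 2, 8 and 10 each had a peak in a single library.

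After scaling, all 4 shared regions of the zyxin locus had both G2 values below both G128 values, as did 21.9% of all shared regions. The scaled differences were -0.34 ± 0.15 for region 1, -0.48 ± 0.15 for region 6 and -0.40 ± 0.18 for region 9. Their adjusted p-values from limma were 0.331, 0.198 and 0.355, so none passed the threshold of 0.05. Region 9 stood at -0.66 without G2 replicate 1 and -0.14 without G2 replicate 2. Under quantile normalization and cyclic loess it was -0.26 and -0.24, and region 1 was -0.31 and -0.30. Region 1 stood at -0.70 when the summits of all its peaks in a library were summed, as G128 replicate 1 had 2 peaks there. The median over the locus, scaled, was -0.97 and -1.02 in the G2 libraries, against -0.65 and -0.71 in the G128 libraries, a difference of -0.31 (two-sided exact permutation p = 0.3333, the smallest that 2 against 2 libraries allow). Without scaling this difference was 0.02. Regions 1, 6 and 9 had pileups of 25 to 60 intervals, and what counting error adds to these differences was not tested.

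At the locus of focal adhesion kinase, the 5 highest shared regions had ratios of G2 over G128 of 1.28 to 1.57, and the 2 low ones had ratios of 1.12 and 1.23. Ptk2 region 11, at chr15:73253390-73254336, had summits of 178 and 190 on G2, against 102 and 132 on G128. All 4 summits lay within 5 bp, at 73253783 to 73253788. The ratio of the means was 1.57, the highest of the 23 shared members, and the scaled difference was 0.33 ± 0.14 (limma SE, adjusted p = 0.336). With the summits of all peaks in the region summed it was 0.16 (limma, adjusted p = 0.685), as G128 replicate 1 had 2 peaks there. Ptk2 region 12, 11.7 kb further at chr15:73265085-73265977, had 181 and 152 on G2, against 97.7 and 139 on G128, with a scaled difference of 0.18 ± 0.16 (limma SE, adjusted p = 0.669). It was 0.03 without G128 replicate 1 and 0.04 without G2 replicate 1, and 0.33 without G128 replicate 2 and 0.32 without G2 replicate 2.

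At the other end of the Ptk2 window, 3 regions stood side by side. Ptk2 region 2, at chr15:73015361-73016255, had summits of 163 and 158 on G2, against 97.7 and 114 on G128. The groups were separate before and after scaling, with a scaled difference of 0.27 ± 0.14 (limma SE, adjusted p = 0.412). Its neighbours at either side were lower, with 91.0 and 83.3 on G2 against 57.9 and 59.5 on G128 in region 1, and 92.8 and 85.5 on G2 against 63.5 and 75.8 on G128 in region 3. In the RefSeq gene order the protein-coding neighbour of Ptk2 on this side is Ago2, which encodes a slicer protein of the RNA interference pathway. The regions here could belong to either gene, and this was not determined.

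Between its ends the Ptk2 window was nearly empty. Regions 4 and 5 had peaks in all 4 libraries, with 39.1 and 46.8 on G2 against 39.8 and 36.8 on G128 in region 4, and 56.4 and 46.0 on G2 against 39.8 and 43.2 on G128 in region 5. The other 5 regions were 90 to 272 bp wide, and 4 of them had a peak in a single G2 library. The scaled median over the 7 shared regions of the window was 0.46 and 0.32 on G2, against 0.34 and 0.38 on G128, so the groups overlapped.

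Caveolin 1 had a pair of high regions next to each other that differed in how the cultures compared. Cav1 region 4, at chr6:17257108-17258130, had summits of 234 and 222 on G2, against 171 and 167 on G128. Cav1 region 3, at chr6:17255781-17256996 and only 111 bp away, had 119 and 125 on G2, against 110 and 128.24 on G128. The G2 libraries were above the G128 libraries in region 4, while in region 3 the groups overlapped.

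Because both regions were measured in the same libraries, their ratio needs no scaling. The summit of region 4 was 1.96 and 1.78 times that of region 3 on G2, against 1.55 and 1.30 times on G128. This ratio averaged 1.87 ± 0.130 in G2 libraries and 1.43 ± 0.175 in G128 libraries (SD, n = 2 each). The pair was chosen after its values were seen, so the ratio is given with no test. In the fit over all regions, the scaled differences were 0.10 ± 0.15 for region 4 (limma SE, adjusted p = 0.807) and -0.29 ± 0.14 for region 3 (adjusted p = 0.375). That of region 4 was 0.22 without G128 replicate 1 and -0.02 without G128 replicate 2. RefSeq lists 2 starts for Cav1, and whether regions 3 and 4 correspond to them was not determined.

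The remaining high region, Cav1 region 1 at chr6:17230808-17231751, had 133 and 142 on G2, against 110 and 115 on G128, and a scaled difference of -0.04 ± 0.14 (limma SE, adjusted p = 0.929). It lies at the edge of the window on the side of Cav2, the gene of caveolin 2, which precedes Cav1 in the RefSeq order. Cav1 region 6 was low but separate between the cultures, with 45.5 and 43.8 on G2, against 30.4 and 31.2 on G128. Cav1 region 8, 46.6 kb from region 4, was nearly level with 45.5 and 45.3 on G2, against 47.4 and 46.1 on G128. Its pileups were 50 and 62 intervals on G2, against 50 and 65 on G128. Region 8 was the second of the 2 members in which both G2 summits were lower. Over the 5 shared regions of the locus, the scaled median averaged 0.84 ± 0.03 in G2 libraries and 1.06 ± 0.10 in G128 libraries (SD, n = 2 each), a difference of -0.21, which was 0.12 without scaling. The exact permutation p of the scaled difference was 0.3333.

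**Figure D2:**
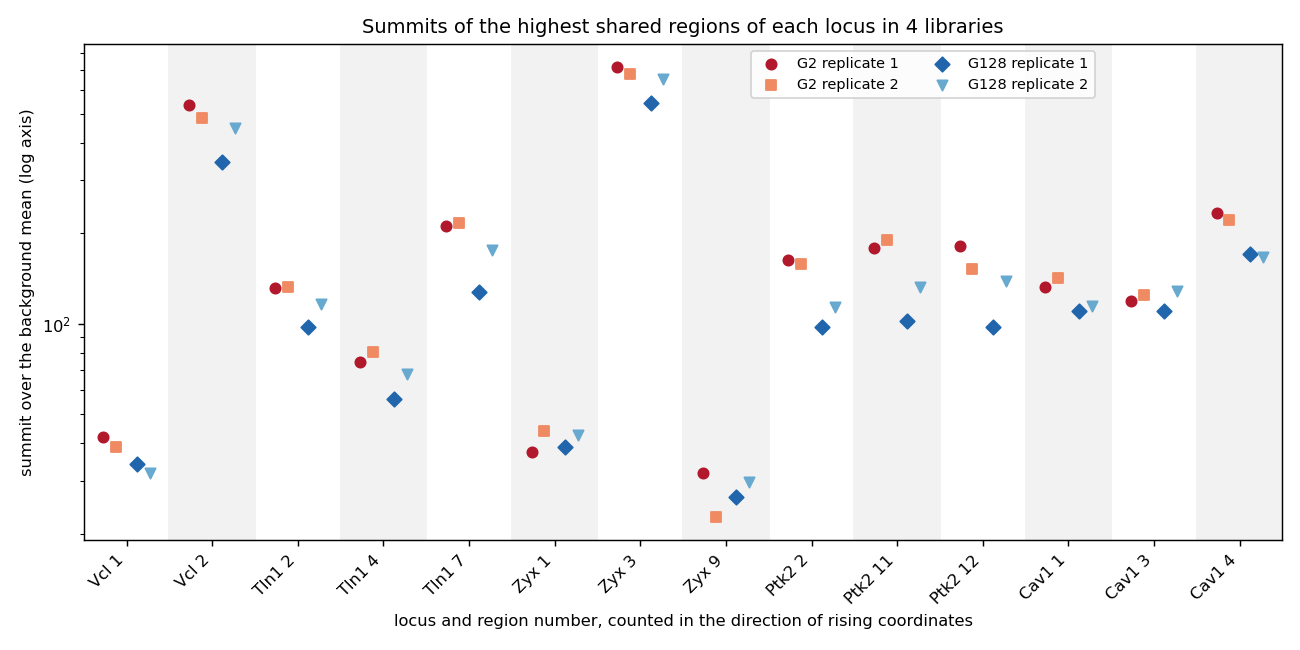
Summit over the background (log axis) in each of the 4 libraries for the 3 highest shared regions of each locus (2 for Vcl). Both G2 symbols stand above both G128 symbols in all regions shown except Zyx 1, Zyx 9 and Cav1 3.

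Across the 23 shared regions, both G2 summits were above both G128 summits in 16, near the 67.6% of all shared regions, and both were below in 2, where 2.79% of all were. After scaling, 5 were separate with G2 above (23.8% of all shared regions) and 6 with G2 below (21.9% of all). The 5 were Ptk2 regions 1, 2 and 11, Tln1 region 7 and Cav1 region 6, and the 6 were the 4 shared regions of Zyx with Cav1 regions 3 and 8. The scaled differences of the members ran from -0.48 to 0.33 with a median of -0.02. Over all shared regions, the 5th percentile, median and 95th percentile were -0.45, 0.01 and 0.36. Only Zyx region 6 was outside that range. Its summits of 22.7 to 27.6 were near the weakest of the lists (18.2 to 19), and 97.7% of shared regions ranked at or above it. What this nearness to the caller's threshold does to its scaled difference was not tested.

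No member passed the threshold in limma on scaled summits, with adjusted p-values over all 27768 regions, in either direction (0% of all regions higher and 0% lower). At an unadjusted p under 0.05 there were 4 of 23, namely Zyx regions 1 and 6, Ptk2 region 11 and Cav1 region 8, where 14.2% of all regions were. With a variance prior that follows the mean summit, a setting added after the values were seen, 0.601% of all regions were called higher and 0.864% lower, and again no member.

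Without scaling, 7 of the 23 members were called higher on G2, beside 21.1% of all shared regions, and none lower (0.245% of all). These were Ptk2 regions 1, 2, 11 and 12, Tln1 regions 3 and 7 and Cav1 region 6, with unscaled differences of 0.51 to 0.66 on the log2 scale (SE 0.20 for each) and adjusted p-values from limma of 0.0137 to 0.0487. The members of Vcl and Zyx were not called. Without scaling the SE was 0.20 in all 23, so these p-values follow the size of the difference and not the spread of each region. Since the median of all shared regions differed by 0.34 on the same scale, these calls include the general difference between the libraries. With both settings changed, 7 members were called higher as well (26.6% of all regions) and none lower (0.22% of all). Of these 7, 6 were the same, with Cav1 region 4 in place of Cav1 region 6.

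On average, more peaks were listed on G2 at 4 of the 5 loci. The 5 windows held 36 and 38 peaks in the G2 libraries, against 26 and 34 in the G128 libraries. Vcl had 4 and 4 peaks on G2, against 2 and 3 on G128. Ptk2 had 10 and 10 on G2, against 8 and 8 on G128, and Cav1 had 9 and 9 on G2, against 5 and 8 on G128. In these 3 loci the groups did not overlap, but a region can hold more than 1 peak of a library. At Cav1, region 8 had 2 peaks in G2 replicate 1 and region 7 had 2 in G2 replicate 2. G128 replicate 2 had 1 peak in each of the 8 Cav1 regions, so counted by regions the groups overlapped there. At Ptk2 the surplus was of weak peaks: among peaks with a summit of at least 30 times the background the ratio was 0.933. It was below 1 only through region 11, which had 2 peaks in G128 replicate 1. The exact permutation p for the number of peaks was 0.3333 at each of these 3 loci, the smallest possible. Tln1 had 6 and 7 peaks on G2, against 5 and 6 on G128, and Zyx had 7 and 8 on G2, between the 6 and 9 on G128. Zyx region 1 had 2 peaks in G128 replicate 1, and Zyx region 6 had 2 in G128 replicate 2.

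At Ptk2, peaks covered 6109 ± 24.0 bases in G2 libraries and 4233 ± 857 in G128 libraries (SD, n = 2 each), so that the ratio was 1.44. At Zyx they covered 4906 ± 264 bases in G2 libraries and 4825.5 ± 1640 in G128 libraries (SD, n = 2 each), with the G128 libraries at 3666 and 5985 on either side of both G2 libraries. Vcl had a ratio of 1.41, Cav1 of 1.21 and Tln1 of 1.12, and in these 3 loci, as at Ptk2, both G2 libraries were above both G128 libraries. The exact permutation p was 0.3333 for each of these 4 loci and 1 for Zyx. The lists of the G2 libraries were longer throughout, with 42358 and 41585 peaks, against 32540 and 37695 on G128. With the 32540 peaks of highest deposited signal taken from each list, the ratio of peaks was 1.25 at Vcl, 1.09 at Tln1, 0.786 at Zyx, 0.933 at Ptk2 and 1.15 at Cav1. The ratio of bases was then 1.14 at Vcl, 1.11 at Tln1, 0.963 at Zyx, 1.35 at Ptk2 and 1.15 at Cav1. At Ptk2 it stayed above 1, while the ratio of peaks fell below 1 only through the 2 peaks of region 11 in G128 replicate 1.

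**Figure D3:**
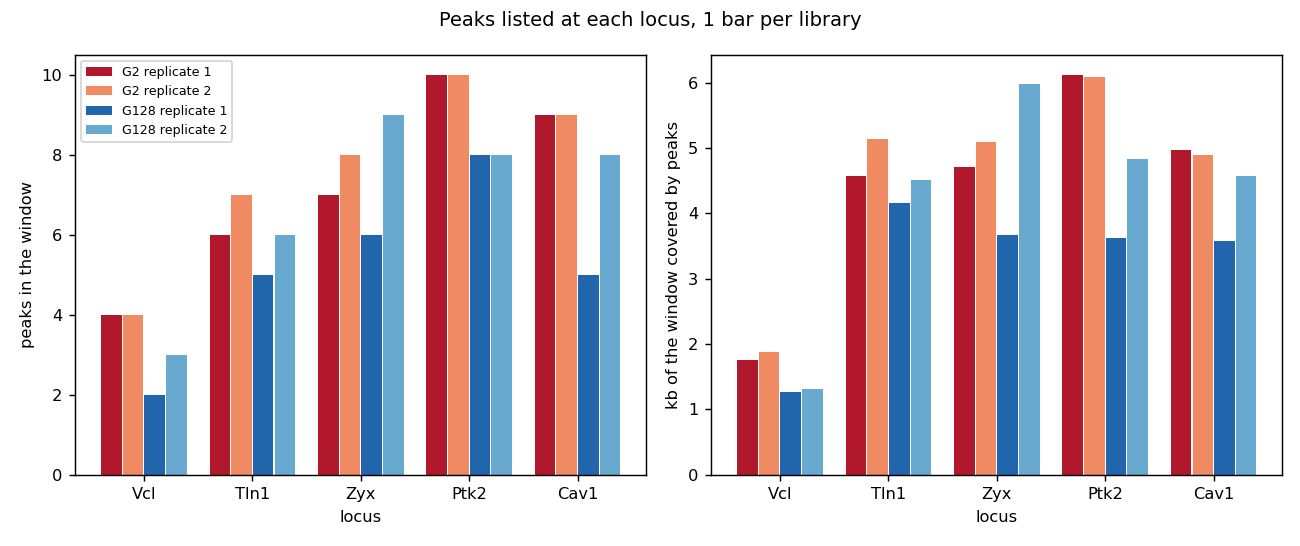
Number of peaks (left) and kb covered by peaks (right) in each window, with 1 bar per library. At Vcl, Ptk2 and Cav1 both G2 bars are above both G128 bars in both panels, and at Zyx the G128 libraries give the lowest and the highest bar.

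The loci were also denser in peaks than the lists as a whole, and unequal among themselves. Zyx had 14 and 16 peaks per 100 kb on G2, against 12 and 18 on G128, and Cav1 had 11.25 in both G2 libraries, against 6.25 and 10 on G128. Vcl was the sparsest with 2.67 in both G2 libraries, against 1.33 and 2 on G128. Over the listed span of all chromosomes the density was 1.61 and 1.58 on G2, against 1.23 and 1.43 on G128. Only Vcl in G128 replicate 1 was close to the density of its own list. The windows were drawn around genes, where open sites gather, so these densities describe the windows and test nothing.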

How the data were processed

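ATAC-seq peak lists of NIH3T3 cells on G2 and G128 were analysed, with 2 libraries a group and groups taken from the sample titles. Per the submitters' processing notes, the tools were Bowtie2 2.2.5, SAMtools 1.7, Genrich 0.5 and deepTools, and the build was mm9. Their roles, settings and the treatment of duplicates are not given in the sources used here. Each list deposited by the authors holds 1 library, with a signal (at least 20.0), a score, −log10 values of p and q and a summit offset per peak. The deposited score equalled 1000 times the signal over the width, capped at 1000, in 100% of peaks (tolerance 1).

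Summit pileups, as whole numbers, were worked out from the −log10 p-values that the authors deposited. The normal quantiles of the lowest 100 distinct values of each list followed a straight line on the logarithm of consecutive integers (root mean square error up to 1.58e-07), as for a log-normal background. All recovered pileups were within 0.00179 of a whole number. Peaks sharing at least 1 bp were merged into regions. Shared regions were fitted with limma 3.58.1 (R 4.3.3) on log2 summits over the background, centred on each library's median, with Benjamini-Hochberg adjustment over 27768 regions at 0.05. Values per locus were compared by two-sided exact permutation tests over 6 assignments. Other steps ran in Python 3.11.15.

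The loci, motifs and named regions (the 3 highest shared regions of a locus, those past the threshold and those of a single group) were chosen with earlier results of these data known. Regions outside this rule were named after their values were seen. Replicate numbers were not used to pair libraries. Other focal adhesion genes were not placed, since no annotation of mm9 was used. Alternatives concerned scaling, filters, windows, thresholds, the block and left-out libraries.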

Additional observations from a re-analysis of the deposited data

How the results depend on the processing

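No member was called on scaled summits under quantile normalization, cyclic loess, summed summits or the replicate block. Under quantile normalization, cyclic loess and summed summits no region of the whole table was called in either direction. At a minimum of 40 for the mean summit, 32 of 20075 regions were called higher and 32 lower. None of the 18 members tested was among them. That filter dropped Vcl region 1, Tln1 region 5, Zyx regions 6 and 9 and Cav1 region 6, which could therefore not be called. Calls are not counted for fits without any one library, as these leave 1 library in a group. Without scaling 7 members were called higher, also with the variance prior that follows the mean. Same-numbered libraries did not deviate together (r = 0.00279 over 27768 regions), and the block fit called 0 members beside 274 regions higher and 656 lower in the whole table, against 0 and 0 without it. Locus medians without scaling were 0.33 for Vcl, 0.33 for Tln1, 0.0169 for Zyx, 0.36 for Ptk2 and 0.12 for Cav1, which leaves in the general difference. Scaled, they were -0.00, -0.00, -0.31, 0.03 and -0.21, at Zyx -0.22 with summits of at least 40, and at Tln1 0.0575 with windows 10 kb wider. Without each library in turn they ran from -0.08 to 0.07 at Vcl, -0.04 to 0.04 at Tln1, -0.35 to -0.28 at Zyx, -0.05 to 0.10 at Ptk2 and -0.29 to -0.14 at Cav1.

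The ratio of highest summits, divided by the library medians, was 1.02 for Vcl, 1.13 for Tln1, 0.931 for Zyx, 1.23 for Ptk2 and 1.07 for Cav1. Undivided it was 1.28, 1.41, 1.17, 1.54 and 1.35, and without each library 1.13 to 1.48, 1.21 to 1.67, 1.07 to 1.28, 1.34 to 1.81 and 1.31 to 1.38. The ratio of peaks was 1.25 at Vcl and 0.933 at Ptk2 with lists cut to equal length, with summits of at least 30 and with a p 10 times lower, all of which drop weak peaks. The 0.933 counts region 11 of Ptk2 as 2 peaks in G128 replicate 1. At Ptk2 the ratio of peaks was 1.13 for peaks of at least 200 bp and 1.44 in wider windows. Without each library it ran from 1.33 to 2 at Vcl, 1.08 to 1.30 at Tln1, 0.833 to 1.25 at Zyx and 1.13 to 1.80 at Cav1, and stayed at 1.25 at Ptk2. The ratio of bases at Vcl was 1.14 under the same 3 settings and 1.27 in wider windows. Without each library it was 1.37 to 1.46 at Vcl, 1.05 to 1.18 at Tln1, 0.8197 to 1.34 at Zyx, 1.26 to 1.68 at Ptk2 and 1.08 to 1.38 at Cav1.

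The single region of both G2 libraries was lost with equal numbers of peaks and with summits of at least 30 (0 each), and wider windows gave 2. Leaving out a library loosens these rules, so the counts do not show how stable the patterns are. Without each library 1 to 9 regions were on G2 alone (6 without G2 replicate 1, 4 without G2 replicate 2), 0 to 1 on G128 alone and 23 to 31 in all remaining libraries. The 9 arose without G128 replicate 2, which rests G128 on replicate 1. The within-library ratio of Cav1 regions 4 and 3 was 1.20 to 1.43 times higher on G2 without any one library. The cause of these shifts was not tested.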
